A study of Mus musculus with 109 samples.

Results

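The 10 genes described here encode NF-κB subunits, inhibitors and other regulators of NF-κB signaling. The genes are Nfkb1, Nfkb2, Relb, Nfkbia, Nfkbie, Nfkbiz, Tnfaip3, Bcl3, Birc3 and Zc3h12a. They were chosen by symbol and Ensembl identifier, with earlier results of these data known, and they are 10 of the 37315 genes in the count table. All 10 were found and passed the filter on low counts in every fit. The lowest count of any of them in a retina was 11, for Birc3.

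The study sequenced poly(A) RNA of 109 whole retinas. They came from 64 mice aged 2 to 4 months, of which 45 gave both eyes. Every eye had received an intravitreal injection, so that the controls were eyes injected with PBS and not untouched eyes. In batch 1 all mice were C57BL/6J wild type (WT). At 2 days after injection this batch held 31 PBS retinas from 31 mice, 8 TNF retinas, 9 IL1A retinas and 10 retinas that received IL1A and TNF together (IL1A+TNF). It also held 7 PBS and 6 TNF retinas at 14 days, and 6 PBS and 9 TNF retinas at 35 days. Batch 2, taken at 2 days, held 5 WT PBS, 6 WT IL1A+TNF, 6 Sarm1-/- PBS and 6 Sarm1-/- IL1A+TNF retinas. Sarm1-/- mice lack SARM1, an enzyme that consumes NAD and drives axon degeneration, in every cell and not in neurons alone. A PBS retina was mostly the fellow eye of a cytokine-injected one, so treated and control eyes often shared an animal and its circulation. Mice deficient in Jun were not analysed here.

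NF-κB is a family of transcription factors that rest in the cytoplasm, bound by inhibitory IκB proteins. Receptors for IL1 and TNF recruit adaptors, ubiquitin ligases and kinases that mark the IκB proteins for destruction, and the freed dimers enter the nucleus and bind κB sites in DNA. Many genes that they switch on, including those for IκB proteins, for the ubiquitin editor A20 and for the RNase Regnase-1, encode brakes on the same pathway, which is why their RNA is widely read as a trace of NF-κB activity. In the retina the pathway is known to operate in Müller glia, microglia, endothelium and neurons.

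The stretches below are shown because these genes are textbook NF-κB targets, and κB sites near their start are what NF-κB dimers bind. RefSeq windows of 250 bases upstream of a transcription start (GRCm38.p6) were at hand for 7 of the 10 genes, with none for Nfkb1, Relb and Nfkbiz. Both strands were searched for the κB consensus of 10 letters. A match was present in 4 of these 7 genes and in 4.46% of the 27025 genes with a window. Each stretch of 30 bases reads 5′ to 3′ on the strand of its gene, with matches in capitals. The first Nfkb2 stretch holds an overlapping pair of matches, which makes its run 1 letter longer.
Nfkb2, chr19:46304688-46304717, plus strand, match 39 bases upstream: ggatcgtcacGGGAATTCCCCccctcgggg
Nfkb2, chr19:46304716-46304745, plus strand, match 11 bases upstream: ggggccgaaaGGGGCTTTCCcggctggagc
Nfkb2 start 2, chr19:46305449-46305478, plus strand, 236 bases upstream: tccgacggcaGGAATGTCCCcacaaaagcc
Nfkb2 start 3, chr19:46305695-46305724, plus strand, 225 bases upstream: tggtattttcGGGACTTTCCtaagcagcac
Nfkbia, chr12:55492657-55492686, minus strand, 29 bases upstream: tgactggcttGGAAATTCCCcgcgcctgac
Nfkbie, chr17:45555584-45555613, plus strand, 106 bases upstream: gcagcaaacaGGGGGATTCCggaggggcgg
Tnfaip3, chr10:19015516-19015545, minus strand, 125 bases upstream: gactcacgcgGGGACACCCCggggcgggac
Tnfaip3, chr10:19015403-19015432, minus strand, match 12 bases upstream: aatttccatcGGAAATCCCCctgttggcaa
No match lay in the windows of Bcl3, Birc3 and Zc3h12a, which says only that these letters are not in those windows. Over all 32851 windows, 3.9% held a match and 162 windows held at least 2. The first windows of Nfkb2 and Tnfaip3 were among the latter. Of the 4 genes with a match, Nfkb2, Nfkbia and Nfkbie were higher and Tnfaip3 was lower after IL1A+TNF, as described below, so a κB match in these windows went with both directions.

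The total count per retina ranged from 30014757 to 79064488 with a median of 39374202. Sarm1 RNA checked the genotype labels. It lay between 76.2 and 137.7 CPM in the 97 WT retinas and between 26 and 52.9 CPM in the 12 Sarm1-/- retinas. CPM are counts scaled to the library total after TMM normalization. The strand setting of the counting is not given in the sources used here. Psd, on the opposite strand with a median count of 9348, overlaps Nfkb2, and the antisense genes Gm16174 and Gm16175, with median counts of 75 and 4, overlap Bcl3, so reads of these pairs cannot be told apart where they overlap. In whole-retina RNA, fewer cells of a type and less RNA per cell cannot be told apart either.

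To order the 10 genes in control eyes, levels were compared per kilobase of exon (RPKM) in the 31 PBS retinas of day 2. Tnfaip3, which encodes the ubiquitin editor A20, was the highest at 35.5 ± 5.52 RPKM (SD, n = 31). Nfkbia, for the classical inhibitor IκBα, followed at 14.5 ± 2.38 RPKM. The ranges of these genes overlapped neither each other nor the next gene, Nfkbiz. Nfkbiz, for the atypical nuclear protein IκBζ, was at 4.42 ± 0.849 RPKM, and Bcl3, for a nuclear IκB protein that joins p50 and p52 dimers, was at 4.09 ± 1.97 RPKM. The subunit genes Nfkb1 and Nfkb2 were at 2.16 ± 0.179 and 1.54 ± 0.457 RPKM. Nfkbie, for IκBε, was at 1.47 ± 0.265 RPKM, Relb at 0.969 ± 0.315, Zc3h12a at 0.904 ± 0.384 and Birc3 at 0.439 ± 0.214 RPKM. From Nfkbiz downwards the range of each gene overlapped that of its neighbour in this order.

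The control eyes differed widely from each other in some of these genes and little in others. The coefficient of variation over the 31 PBS retinas was 8.28% for Nfkb1, between 15.5% and 19.2% for Tnfaip3, Nfkbia, Nfkbie and Nfkbiz, 29.6% for Nfkb2 and 32.5% for Relb. It reached 42.4% for Zc3h12a, 48.2% for Bcl3 and 48.9% for Birc3. The highest PBS retina held 10.1 times the Bcl3 level of the lowest and 7.89 times its Birc3 level, against 1.37 times for Nfkb1.

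To ask how the genes responded when both cytokines were present, IL1A+TNF retinas were compared with PBS retinas at day 2. All 10 genes were called at a false discovery rate (FDR) under 0.05 by limma, 9 of them higher and Tnfaip3 alone lower. Of the 19548 genes tested, 50.4% were called, 24.9% higher and 25.5% lower, so a call by itself is not particular to these genes. The median log2 fold change was 0.63 over the 10 genes and −0.02 over all genes. For each of the 10 genes the ranges of the 2 groups overlapped, and over all genes tested 2.61% had groups that did not overlap.

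Among the subunits, Nfkb2 and Relb, the pair of the non-canonical pathway, rose more than Nfkb1. Nfkb2 encodes p100, the precursor of p52, and ran from 3.81 to 12.3 CPM with a median of 6.58 in PBS retinas and from 9.87 to 21.5 CPM with a median of 11.9 in IL1A+TNF retinas. Thus 4 of 10 treated retinas exceeded the highest PBS retina, and the log2 fold change was 0.90 (SE 0.116, FDR = 1.96e-09). Relb, the partner of p52, had lowest, median and highest levels of 2.26, 3.35 and 6.69 CPM in PBS and of 4.77, 6.05 and 9.91 CPM in IL1A+TNF retinas, a log2 fold change of 0.75 (SE 0.129). Only 2 of 10 treated retinas exceeded the PBS range. Nfkb1, which encodes p105 and p50, moved from a median of 26 (22.5 to 30.9) CPM to 30 (27 to 33.6) CPM. Its log2 fold change of 0.21 (SE 0.0413, FDR = 1.73e-05) was the smallest of the 10, and Nfkb1 was also the least variable gene in PBS retinas.

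The IκB family rose by very different amounts. Bcl3 had lowest, median and highest levels of 2.43, 9.20 and 24.4 CPM in PBS and of 13.8, 39.9 and 64.9 CPM in IL1A+TNF retinas, and 8 of 10 treated retinas lay above all PBS retinas. Its log2 fold change of 2.08 (SE 0.203, FDR = 4.82e-13), or 4.23-fold, was the largest of the 10 genes. Nfkbie moved from 4.47 (2.84 to 6.03) CPM to 6.17 (5.23 to 7.81) CPM, with 7 of 10 treated retinas above the PBS range and a log2 fold change of 0.52 (SE 0.0807). Nfkbia, whose resynthesis ends each round of NF-κB activity, moved from 22.8 (17 to 31.6) CPM to 29 (24.6 to 43.7) CPM. Its rise was 1.27-fold (log2 0.34, SE 0.0822, FDR = 0.000366), and 2 of 10 treated retinas exceeded the PBS range. Nfkbiz rose to the same extent, with a log2 fold change of 0.34 (SE 0.0756), from 21.1 (16.8 to 35.9) CPM to 27.5 (23.4 to 38.3) CPM.

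Of the 3 genes whose products act on signaling proteins or on RNA, Tnfaip3 fell and the others rose. Tnfaip3 ran from 164.9 to 333.1 CPM with a median of 259.8 in PBS retinas and from 84.1 to 208.6 CPM with a median of 107.8 in IL1A+TNF retinas, and 9 of 10 treated retinas lay below every PBS retina. The log2 fold change was −1.20 (SE 0.0947, FDR = 4.11e-16), which is 0.436 times the PBS level, and Tnfaip3 ranked 139 of 19548 genes by p. Birc3 encodes the ubiquitin ligase cIAP2 at the TNF receptor, and rose 3.42-fold (log2 1.77, SE 0.194, FDR = 2.06e-11). It moved from 2.04 (0.781 to 6.16) CPM to 6.78 (3.90 to 13.3) CPM, with 6 of 10 treated retinas above the PBS range. Zc3h12a encodes Regnase-1, which degrades cytokine mRNAs, and rose 1.81-fold (log2 0.85, SE 0.133, FDR = 2.25e-07) from 2.36 (1.21 to 5.72) CPM to 4.22 (3.70 to 6.33) CPM. For Zc3h12a 2 of 10 treated retinas exceeded the PBS range.

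**Figure D1:**
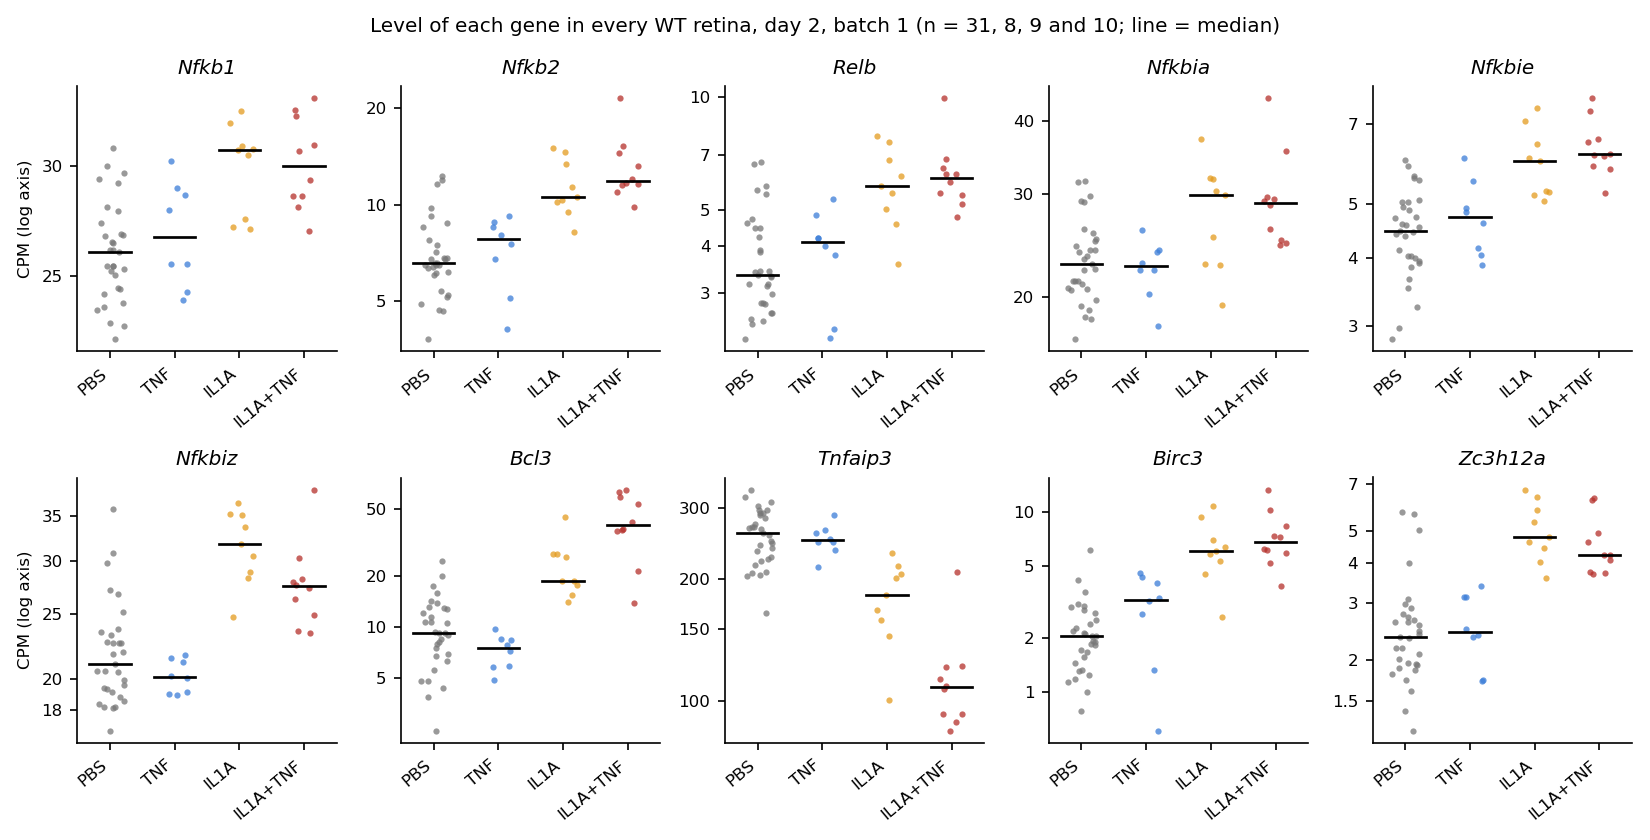
Level of each of the 10 genes in every WT retina of batch 1 at day 2, in CPM (vertical log axis, one panel per gene), for PBS (n = 31), TNF (n = 8), IL1A (n = 9) and IL1A+TNF (n = 10), with a line at each group's median. Tnfaip3 is the only gene that is lower in IL1A+TNF retinas (median 107.8 CPM) than in PBS retinas (259.8 CPM), and Bcl3 shows the widest upward shift.

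The same directions were seen inside animals. In the 8 mice with an IL1A+TNF eye and a PBS eye in batch 1, Tnfaip3 was lower in the treated eye in 8 of 8, by a log2 difference from −1.63 to −0.37. Nfkb1, Nfkb2, Nfkbie and Birc3 were higher in the treated eye in 8 of 8 mice, and the other 5 genes in 7 of 8. With mouse as a fixed factor, all 10 genes were again called.

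IL1A+TNF retina 9 stood apart from its group. Its Tnfaip3 level of 208.6 CPM was the highest and its Bcl3 level of 13.8 CPM the lowest of the group, and all 10 of its levels fell inside the PBS range. Without it the log2 fold changes were larger in size, −1.30 for Tnfaip3 and 2.26 for Bcl3. Leaving out any 1 of the 10 treated retinas left all 10 genes called.

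Cell type markers moved with these genes, and their part in the results was not tested. The 6 rod markers, which show that the tissue was retina, summed to a median of 44830 CPM (34440 to 53690) in PBS retinas and of 24490 CPM (21860 to 40080) in IL1A+TNF retinas, and 5 of 6 were called lower. Retina 9 held the highest rod sum of its group. The 7 ganglion cell markers summed to a median of 594.6 CPM in PBS and 477.3 CPM in IL1A+TNF retinas, and 6 of 7 were called lower. The 10 neutrophil markers summed to 15.9 CPM (2.90 to 130.5) in PBS and 183 CPM (119 to 751) in IL1A+TNF retinas. Of these, 6 of the 8 tested were called higher, while Ly6g and Mpo were each at 0 in 6 of 10 treated retinas. All 8 monocyte and macrophage markers were called higher, with a sum that went from 11 to 55.7 CPM. Of 8 microglial markers 4 were called higher and 3 lower, with a sum from 87.8 to 138 CPM. The 7 endothelial and pericyte markers went from 442 to 589 CPM in sum. The 7 Müller glial markers went from 4114 to 3261 CPM in sum, but 2 were called higher and 3 lower. The levels of the 10 genes cannot be assigned to one of these cell types in whole-retina RNA.

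IL1A alone moved the same 10 genes in the same directions. limma called all 10, 9 of them higher and Tnfaip3 lower, where 21.4% of all genes were called, 12% higher and 9.45% lower. The median log2 fold change was 0.59 over the 10 genes and −0.01 over all genes. No gene of the 10 had groups that did not overlap, and over all genes 0.107% had. The IL1A and IL1A+TNF comparisons share the PBS retinas.

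Birc3 showed the largest response to IL1A, 3.05-fold (log2 1.61, SE 0.208), from the PBS median of 2.04 CPM to 6.11 (2.61 to 10.8) CPM. Bcl3 rose 2.41-fold (log2 1.27, SE 0.225) to a median of 18.7 (14.1 to 44.6) CPM, and Zc3h12a 2.05-fold (log2 1.04, SE 0.137) to 4.79 (3.59 to 6.72) CPM. The subunit genes rose by log2 fold changes of 0.73 for Nfkb2, 0.66 for Relb and 0.21 for Nfkb1. Nfkbiz rose by 0.52 and Nfkbie by 0.43 on the log2 scale. Nfkbia rose by 0.25 (SE 0.0873, FDR = 0.0284), and this call was lost when IL1A retina 1, 2, 5, 6 or 9 was left out. With mouse as a fixed factor the log2 fold changes of Nfkbia (0.18), Nfkbie (0.37) and Relb (0.52) did not pass, and 7 genes were called.

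Tnfaip3 fell by 0.54 on the log2 scale (SE 0.0988, FDR = 2.12e-05) after IL1A, to 0.686 times the PBS level. IL1A retinas ran from 100.1 to 232.0 CPM with a median of 182.3, and 3 of 9 lay below every PBS retina. In the 7 mice with an IL1A eye and a PBS eye, Tnfaip3 was lower in the IL1A eye in 6 and Birc3 was higher in 7. Nfkb1, Nfkbiz, Bcl3 and Zc3h12a were higher in 6, and Nfkb2, Relb, Nfkbia and Nfkbie in 5. IL1A retinas 3, 5 and 7 had all 10 genes inside the PBS range. Rod markers summed to a median of 37630 CPM (23350 to 42400) and neutrophil markers to 154 CPM (63.6 to 349) in IL1A retinas. Ganglion cell markers summed to a median of 522.3 CPM there, and 5 of 7 were called lower.

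After TNF alone at day 2 none of the 10 genes was called by limma, by edgeR or by DESeq2, and none had an unadjusted p under 0.05. Over all genes limma called 0.655%, with 0.614% higher and 0.0409% lower, and 1497 genes had an unadjusted p under 0.05. The 10 log2 fold changes ran from −0.32 for Bcl3 (95% interval −0.95 to 0.31) to 0.41 for Birc3 (95% interval −0.13 to 0.95). Without TNF retina 6, which held the lowest Birc3 level, the Birc3 value was 0.70 (FDR = 0.152), and without any other single TNF retina it ran from 0.26 to 0.52. For Tnfaip3 the difference was −0.03 (95% interval −0.23 to 0.18), with TNF retinas between 214.6 and 287.6 CPM around a median of 249.7. Bcl3 lay between 4.82 and 9.76 CPM with a median of 7.52, and all 8 TNF retinas were within the PBS range. Birc3 was spread from 0.609 to 4.57 CPM with a median of 3.26. In the 8 mice with a TNF and a PBS eye, the TNF eye was higher in 6 for Nfkbie, Bcl3, Birc3 and Zc3h12a. It was higher in 5 for Nfkb1, Nfkb2 and Relb, in 4 for Nfkbia, in 3 for Nfkbiz and in 2 for Tnfaip3. The log2 difference of Birc3 within these mice ran from −1.96 to 2.31 with a median of 0.93. With mouse as a fixed factor Birc3 was at 0.83 (limma FDR = 0.602). The PBS retinas of day 2 included 7 with an IL1A and 8 with an IL1A+TNF fellow eye. Summed rod markers stood at 44060 CPM, neutrophil markers at 21.1 CPM and monocyte and macrophage markers at 41.0 CPM in the median TNF retina.

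**Figure D2:**
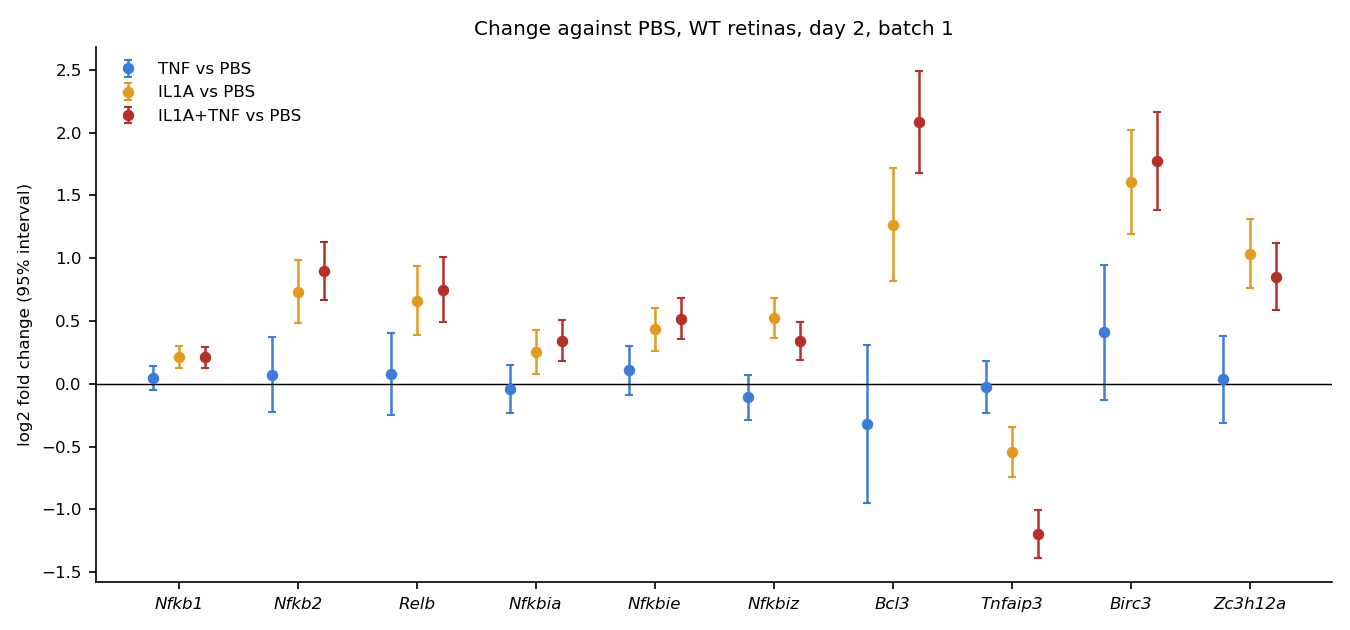
Log2 fold change against PBS at day 2 (vertical axis) with its 95% interval for each of the 10 genes after TNF, IL1A and IL1A+TNF, from limma. Every TNF interval spans 0, the IL1A and IL1A+TNF intervals do not, and Tnfaip3 is the only gene below 0 after IL1A (−0.54) and IL1A+TNF (−1.20).

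To ask where the treatments differed from each other, they were compared directly. Between IL1A+TNF and IL1A retinas limma called 2 of the 10 genes, Tnfaip3 (log2 −0.65, SE 0.121, FDR = 0.000215) and Bcl3 (log2 0.81, SE 0.244, FDR = 0.0226). Over all genes 10.1% were called, 5.39% higher and 4.68% lower. The groups overlapped for both genes, as they did for all but 0.107% of all genes. With only these groups in the fit Bcl3 was no longer called, and with mouse as a fixed factor neither gene was. The other 8 genes ranged from −0.19 for Nfkbiz (95% interval −0.38 to 0.00) to 0.17 for Nfkb2 (95% interval −0.12 to 0.45).

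Against TNF retinas, IL1A+TNF retinas differed in all 10 genes, 9 higher and Tnfaip3 lower, where 39% of all genes were called, 20% higher and 19% lower. The groups did not overlap for 5 of the 10 genes, Nfkb2, Nfkbiz, Tnfaip3, Bcl3 and Zc3h12a, against 6.20% of all genes. Bcl3 stood 5.28-fold higher (log2 2.40, SE 0.333) and Tnfaip3 at 0.444 times the TNF level. IL1A retinas differed from TNF retinas in 7 genes, 6 higher and Tnfaip3 lower, where 9.08% of all genes were called, 5.39% higher and 3.68% lower. Their groups did not overlap for Nfkbiz, Bcl3 and Zc3h12a, 3 of the 10 genes, against 0.992% of all genes. Nfkb1, Nfkbia and Nfkbie were not called there by limma, at log2 fold changes of 0.16, 0.29 and 0.32, while DESeq2 called all 10. With mouse as a fixed factor, which uses only mice that gave both eyes, the calls fell to 2 for IL1A+TNF against TNF and to 0 for IL1A against TNF.

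The interaction of IL1A and TNF asks whether the response to both differs from the sum of the single responses on the log2 scale. limma called 1 of the 10 genes, against 3.60% of all genes, 1.78% with a positive and 1.82% with a negative interaction. The single effects of Tnfaip3 summed to −0.57, or 0.674 times the PBS level, and the observed change was −1.20, or 0.436 times. Its interaction was −0.63 (SE 0.159, FDR = 0.0174). Bcl3 had an interaction of 1.13 (SE 0.399, FDR = 0.0982), with a sum of 0.95 (1.93-fold) and an observed change of 2.08 (4.23-fold). For the other 8 genes the interaction ran from −0.24 for Birc3 (95% interval −0.94 to 0.46) to 0.13 for Nfkbia (95% interval −0.16 to 0.41).

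The call for Bcl3 depended on the test and on single retinas. edgeR and DESeq2 called 2 of the 10 genes for interaction, Tnfaip3 and Bcl3. limma called both when IL1A retina 8 or IL1A+TNF retina 9 was left out, with a Bcl3 interaction of 1.27 (FDR = 0.0447) or 1.29 (FDR = 0.0157). With mouse as a fixed factor 0 genes were called, and Tnfaip3 was at −0.52. Rod markers moved with the Tnfaip3 interaction, since 4 of 6 were called for a negative interaction, with a median of −0.37 over the list. Their part in the result was not tested.

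**Figure D3:**
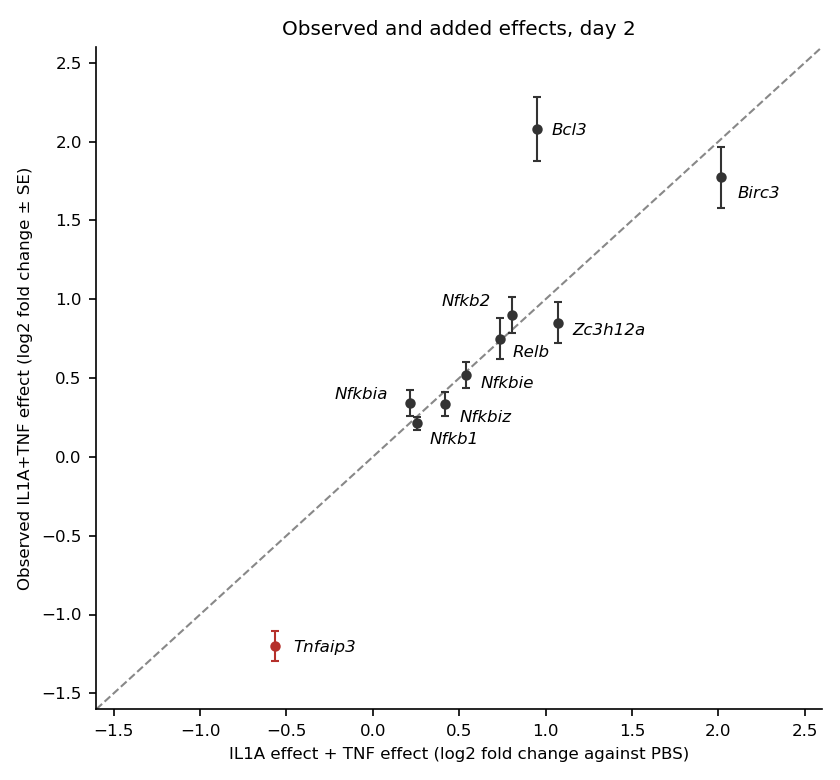
Observed log2 fold change of IL1A+TNF against PBS (vertical axis, bars of 1 SE) plotted against the sum of the IL1A and TNF fold changes (horizontal axis, log2) for the 10 genes, with a dashed line where both are equal. Tnfaip3 (red) lies below the line at −1.20 against a sum of −0.57 and Bcl3 above it at 2.08 against 0.95.

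Tnfaip3 was negatively related to most of the other genes in the control eyes too. Over the 31 PBS retinas of day 2, each from another mouse, Tnfaip3 was related to 9 genes and to the rod marker sum on the log2 CPM scale, 10 relations in all. Permutation tests with 100000 resamples, two-sided, were adjusted by Benjamini-Hochberg over these 10. The relation was negative with Bcl3 (r = −0.74, permutation p = 2e-05, adjusted p = 6.67e-05; rho = −0.72, permutation p = 3e-05) and with Birc3 (r = −0.73, permutation p = 1e-05, the smallest these resamples can give; rho = −0.71, permutation p = 2e-05). When the 2 retinas farthest from the median were left out, r was −0.65 for Bcl3 and −0.61 for Birc3. The values for Nfkb2 were r = −0.69 and rho = −0.70, for Nfkbie r = −0.62 and rho = −0.61, and for Relb r = −0.52 and rho = −0.51. These 3 had adjusted permutation p-values for r of 7.5e-05, 0.00034 and 0.00508 and for rho of 6.67e-05, 0.00082 and 0.00603. Zc3h12a had r = −0.45 (adjusted permutation p = 0.0154) and rho = −0.43 (adjusted permutation p = 0.0234), but r was −0.29 without the 2 farthest retinas, so that this relation rested on them.

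Nfkb1 (r = −0.32), Nfkbia (r = −0.34) and Nfkbiz (r = −0.24) had adjusted permutation p-values of 0.0856, 0.0766 and 0.191. Tnfaip3 was positively related to the rod marker sum, with r = 0.74 (permutation p = 1e-05), rho = 0.73 (permutation p = 2e-05) and r = 0.77 without the 2 farthest retinas. All of these measures come from the same libraries and share their scaling.

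Other genes of the pathway were read from lists made from general knowledge. Of 4 other subunits and IκB proteins all 4 were called higher after IL1A+TNF, among them Rela (0.40), Rel (0.50) and Nfkbid (0.49 on the log2 scale), the genes for p65, c-Rel and IκBNS. Of 11 kinases 4 were higher, led by Ikbke (2.23), Map3k8 (0.93) and Tbk1 (0.17), and 2 were lower, where 24.9% of all genes were called higher and 25.5% lower. Of 15 adaptors and ubiquitin ligases 11 were higher and 1 lower, with Irak4 at 1.06, Irak2 at 0.48 and Myd88, the adaptor of the IL1 receptor, at 1.15. Of 15 other negative regulators, 14 were tested and 9 were higher and 2 lower. Irak3, a brake on IL1 receptor signaling, was at 1.70, Zfp36, which destabilizes cytokine mRNAs, at 1.22 and N4bp1 at 0.29. Otud7b and Rnf11 were the 2 lower ones, at −0.13 and −0.10. The median log2 fold changes of these 4 lists were 0.44, 0.05, 0.26 and 0.19.

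Of 26 effector genes that NF-κB is known to induce, 24 were tested, and 21 were higher and 1 lower after IL1A+TNF, with a median of 1.08. Mmp9 rose by 2.30, Irf1 by 2.07 and Csf1 by 1.62 on the log2 scale. After IL1A alone 18 of the 24 were higher and none lower, and the counts higher in the other lists were 3 of 4, 4 of 11, 7 of 15 and 3 of 14, with 1 kinase lower. Over all genes 12% were called higher and 9.45% lower after IL1A, so that some of these counts are not far from the share over all genes. After TNF alone the only gene called in these 5 lists was Ccl5 among the effectors (1.19, FDR = 0.00298). Genes of the lists that were called for interaction were Rela, Ripk1, Rnf31, Myd88, N4bp1, Csf1 and Irf1 with positive values and Otud7b with a negative one. Outside the 10 genes, those whose 3 log2 fold changes at day 2 lay nearest to the medians of the 10 were H6pd, Adamtsl4, Sipa1, Lfng and Vsig10, at distances of 0.0328 to 0.0822 on the log2 scale.

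To ask whether TNF acted later, TNF and PBS retinas were compared at 14 and 35 days. None of the 10 genes was called at either day by limma, edgeR or DESeq2, and limma called 0% of all genes at both. At an unadjusted p under 0.05 there were 838 genes at day 14, with Bcl3 among them, and 871 at day 35, with none of the 10. Bcl3 was the highest of the 10 at both days, with a log2 fold change of 0.63 at day 14 (95% interval 0.05 to 1.21, FDR = 0.888) and of 0.44 at day 35 (95% interval −0.08 to 0.96). No gene of the 10 had groups that did not overlap, and over all genes the share was 0.0333% at day 14 and 0.0112% at day 35. The TNF effect at day 14 or 35 minus that at day 2 was not called for any gene. An unadjusted p under 0.05 was found for 759 and 511 genes, with no gene of the 10 among them. edgeR and DESeq2 gave 0 of the 10 genes there too.

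The PBS retinas themselves differed with the day after injection in all 10 genes by an F test in limma, against 36.3% of all genes. From day 2 to day 14, 9 genes were lower and Tnfaip3 higher, where 19.2% of all genes were called, 10.5% lower and 8.68% higher. From day 2 to day 35, 8 genes were lower and Tnfaip3 higher, where 32.8% of all genes were called, 17.4% lower and 15.4% higher. The exception was Nfkbia (log2 −0.16, FDR = 0.18), and its day 14 value of −0.24 (FDR = 0.0498) was at the edge.

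Bcl3 fell furthest. It ran from 2.43 to 24.4 CPM at day 2, from 1.10 to 4.41 CPM around a median of 1.77 at day 14, and from 0.453 to 0.764 CPM around a median of 0.660 at day 35. Its log2 fold change against day 2 was −2.25 (SE 0.452) at day 14 and −3.86 (SE 0.738) at day 35, or 0.21 and 0.0687 times the day 2 level. Tnfaip3 stood at 348.4 (324.0 to 380.8) CPM at day 14 and 443.8 (381.6 to 505.5) CPM at day 35, which is 1.39 and 1.72 times the day 2 level (log2 0.47, SE 0.084, and 0.79, SE 0.09). Day 35 retinas did not overlap day 2 retinas for Tnfaip3, Bcl3, Nfkb2, Relb and Birc3, 5 of the 10 genes against 4.06% of all genes. At day 14 no gene of the 10 was free of overlap, against 0.769% of all genes.

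The other genes took intermediate values. Nfkb2 was at a log2 fold change of −0.90 at day 14 and −1.27 at day 35, Relb at −0.79 and −1.03, and Birc3 at −0.98 and −1.92. Zc3h12a was at −0.61 and −0.79, Nfkbie at −0.41 and −0.49, Nfkbiz at −0.30 and −0.31, and Nfkb1 at −0.18 and −0.20. Between days 14 and 35 limma called none of the 10, against 4.25% of all genes, 2.30% higher and 1.95% lower at day 35, and 3758 genes, 2 of the 10 among them, had an unadjusted p under 0.05. edgeR called Bcl3 there (−1.71), and DESeq2 called Bcl3 (−1.72) and Tnfaip3 (0.32).

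The day after injection and the cohort of mice cannot be told apart. PBS eyes of day 2 came from mice of every treatment. All 6 PBS retinas of day 35 and 4 of the 7 of day 14 had a TNF fellow eye, while PBS retinas 2 and 3 of day 14 were the eyes of 1 mouse and PBS retina 5 had no fellow eye in the data. With each eye of that mouse left out in turn, a choice made after seeing the data, 8 genes were called at day 14 without PBS retina 2 and 7 without PBS retina 3. Nfkbia and Zc3h12a were no longer called either way and Nfkbiz was not without retina 3, at limma FDR values from 0.0517 to 0.0977. Over the days 9 and 10 genes were called, and 9 at day 35 either way. When only PBS retinas with a TNF fellow eye were used, a choice made after seeing the data, 5 genes were called over the days, 3 at day 14 and 8 at day 35. Bcl3 was then at −1.73 and −3.12 and Tnfaip3 at 0.37 and 0.67. Markers moved with the day too. The median rod sum was 44830, 53050 and 52470 CPM at days 2, 14 and 35, the neutrophil sum 15.9, 1.97 and 1.70 CPM, the monocyte and macrophage sum 11, 3.54 and 2.12 CPM, and the microglial sum 87.8, 54.7 and 43.7 CPM. Their part in these differences was not tested.

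**Figure D4:**
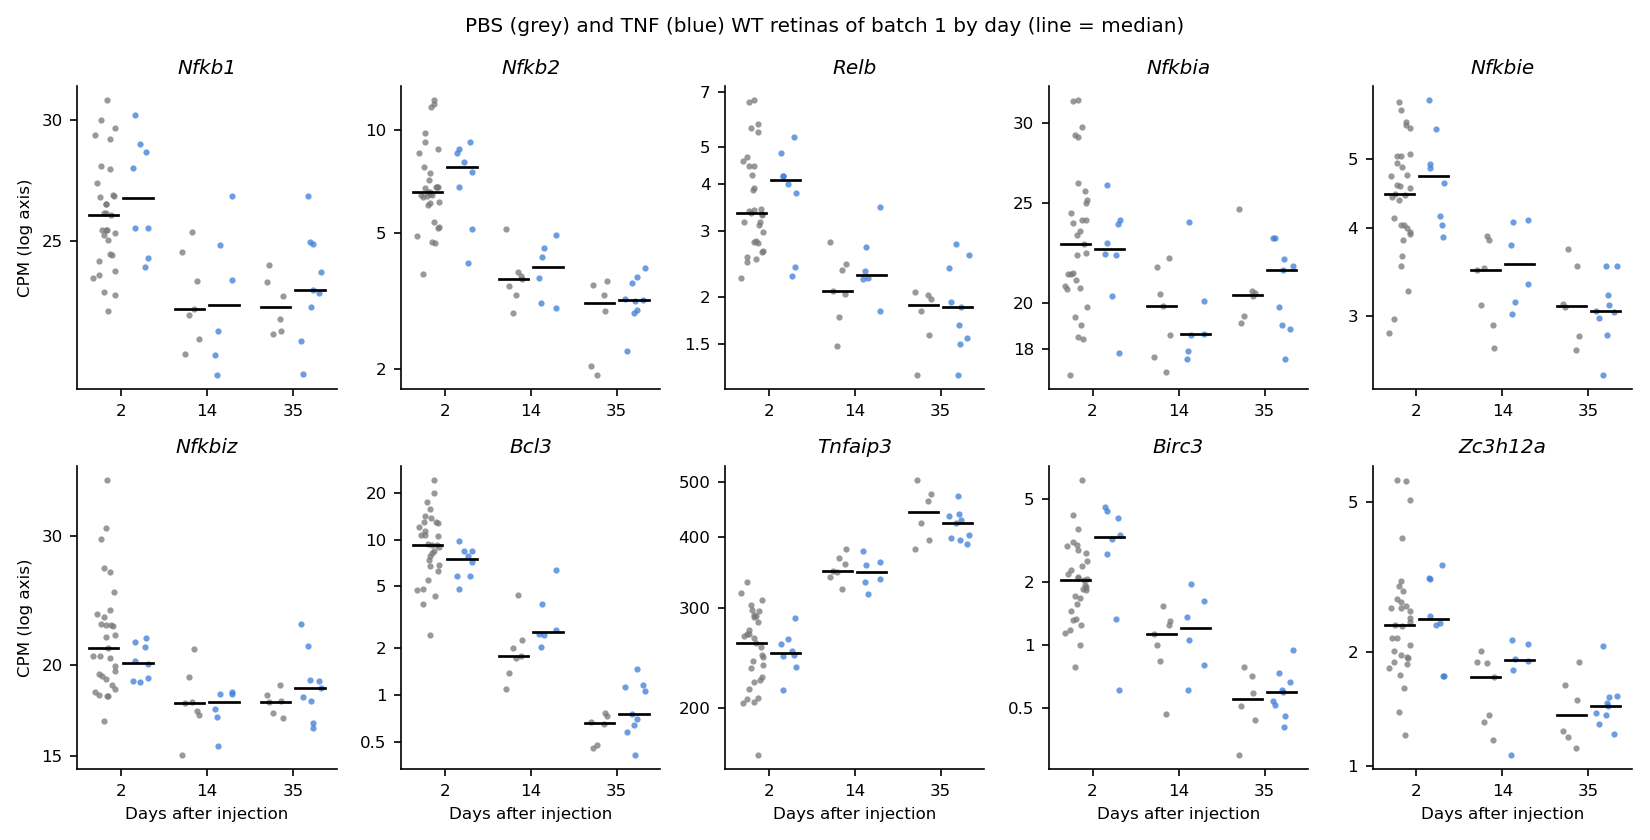
Level of each of the 10 genes in WT retinas of batch 1, in CPM (vertical log axis), at days 2, 14 and 35 (horizontal axis) after PBS (grey, n = 31, 7 and 6) or TNF (blue, n = 8, 6 and 9), with a line at each median. PBS and TNF points intermingle on every day, Tnfaip3 climbs from a PBS median of 259.8 to 443.8 CPM, and Bcl3 drops from 9.20 to 0.660 CPM.

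The response to IL1A+TNF was measured a second time in the WT retinas of batch 2. limma called all 10 genes, 9 higher and Tnfaip3 lower, where 20.9% of all genes were called, 13.3% higher and 7.55% lower. For all 10 genes the IL1A+TNF retinas lay clear of the PBS retinas, against 22.1% of all genes. Tnfaip3 in the 5 PBS retinas was 225.5, 288.1, 311.8, 286.9 and 180.3 CPM, and in the 6 IL1A+TNF retinas it ran from 82.1 to 154.9 CPM with a median of 113.2 (log2 −1.19, SE 0.202, FDR = 0.000335). Bcl3 in the PBS retinas was 8.59, 4.64, 6.54, 4.46 and 20.04 CPM, and in the IL1A+TNF retinas it ran from 20.7 to 62.1 CPM with a median of 41.9. PBS retina 5 thus came within 1 CPM of the lowest treated retina for Bcl3 and held the lowest Tnfaip3 level of the controls. Markers moved here too. From PBS to IL1A+TNF retinas the median neutrophil sum went from 8.54 to 297.5 CPM and the rod sum from 48640 to 29510 CPM. The Müller glial sum went from 4233 to 3016 CPM, with 1 of 7 markers called higher and 2 lower. The ganglion cell sum went from 588 to 463.5 CPM, with 0 of 7 called. The part of these markers in the result was not tested.

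The other log2 fold changes in batch 2 were 0.32 for Nfkb1, 1.12 for Nfkb2, 1.01 for Relb, 0.58 for Nfkbia, 0.72 for Nfkbie, 0.41 for Nfkbiz, 2.16 for Birc3 and 1.38 for Zc3h12a, beside 2.34 for Bcl3. The calls of Nfkbia or Nfkbiz were lost when PBS retina 2, 3 or 4 was left out, and Nfkb2, Nfkbia and Nfkbiz were not called with mouse as a fixed factor. In the 5 mice with both eyes, all 10 genes differed in the stated direction in 5 of 5. The difference in effect between the batches was called for none of the 10 genes and for 0% of all genes by limma, with 1186 genes at an unadjusted p under 0.05. It ranged from 0.03 for Tnfaip3 (95% interval −0.34 to 0.40) to 0.50 for Zc3h12a (95% interval 0.03 to 0.98, unadjusted p = 0.0388 and FDR = 0.827 in limma). edgeR called none and DESeq2 none of the 10 there.

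To ask whether loss of Sarm1 altered these genes, Sarm1-/- retinas were compared with PBS retinas of their genotype and with WT retinas, in a fit of all 81 retinas of day 2 with a batch term. After IL1A+TNF 9 of the 10 genes were called in Sarm1-/- retinas, 8 higher and Tnfaip3 lower, where 43.5% of all genes were called, 21.3% higher and 22.2% lower. Tnfaip3 had lowest, median and highest levels of 199.3, 254.2 and 308.7 CPM in PBS and of 90.8, 134.0 and 206.5 CPM in IL1A+TNF retinas (log2 −0.90, SE 0.162, FDR = 8.46e-06). Bcl3 moved from 10.9 (3.55 to 18.4) CPM to 31.5 (17 to 66.1) CPM (log2 1.74, SE 0.369) and Birc3 from 2.91 (2.36 to 5.07) CPM to 8.42 (4.31 to 17.1) CPM (log2 1.45, SE 0.292). For every gene at least 1 treated retina lay inside the PBS range, while 5.17% of all genes had groups apart.

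Markers moved with these changes in Sarm1-/- retinas, and their part in the result was not tested. From PBS to IL1A+TNF the median neutrophil sum went from 15.7 to 274 CPM, with 6 of 8 tested markers called higher, and the monocyte and macrophage sum from 13.7 to 58.4 CPM. The rod sum went from 45010 to 29690 CPM with 5 of 6 markers lower, the Müller glial sum from 4181 to 2500 CPM with 5 of 7 lower, and the ganglion cell sum from 588.5 to 370 CPM with 7 of 7 lower.

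The other Sarm1-/- log2 fold changes were 0.16 for Nfkb1, 0.86 for Nfkb2, 0.51 for Relb, 0.37 for Nfkbia, 0.60 for Nfkbie and 0.89 for Zc3h12a. Nfkbiz was at 0.23 (FDR = 0.0958) and was not called. With batch 2 alone in the fit 6 genes were called, and Nfkb1 (0.16), Relb (0.52) and Nfkbia (0.37) were not. In the 6 mice with both eyes, Tnfaip3 was lower in the treated eye in 5, and Bcl3 and Zc3h12a were higher in 6. Nfkb2, Nfkbie and Birc3 were higher in 5, Nfkb1, Nfkbia and Nfkbiz in 4, and Relb in 3. The smallest log2 difference was 0.05 for Bcl3 and 0.039 for Zc3h12a.

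Sarm1-/- IL1A+TNF retinas 4 and 5 stood apart in their markers, and the Sarm1-/- counts rested in part on them. Their ganglion cell markers summed to 95.6 and 79.1 CPM and their endothelial and pericyte markers to 268 and 200 CPM, against group medians of 370 and 502.5 CPM. Their neutrophil markers summed to 657.9 and 610.2 CPM, against a group median of 274.3. For every gene but Tnfaip3 these retinas held the highest levels of the group. The highest Nfkb2 level was 31.4 CPM beside a group median of 12.1, and Bcl3 was at 66.1 and 64.4 CPM beside 31.5. Without these 2 retinas, a choice made after seeing the data, 4 genes were called, 3 higher and 1 lower, with Bcl3 at 1.22 (FDR = 0.0223) and Tnfaip3 at −0.82 (FDR = 0.00113). Leaving out retina 4 or 5 alone, or PBS retina 3 or 4, gave 6 called genes each, without Nfkb1, Relb or Nfkbia.

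Genotype itself showed no called difference in the 10 genes. Among PBS retinas limma, edgeR and DESeq2 called none, where limma called 0.0397% of all genes, 0.00496% higher and 0.0347% lower, and 984 genes had an unadjusted p under 0.05. Nfkbia (0.29, FDR = 0.959) and Nfkbiz (0.29, FDR = 0.815) were the members with an unadjusted p under 0.05 in limma, both higher in Sarm1-/-. Nfkbia was the 1 gene of the 10 whose Sarm1-/- and batch 2 WT PBS retinas did not overlap, against 1.11% of all genes. For Tnfaip3 the genotypes differed by 0.00 (95% interval −0.30 to 0.31), and the sign of that value turned with the normalization.

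Among IL1A+TNF retinas none of the 10 was called between genotypes, where limma called 14.8% of all genes, 4.04% higher and 10.8% lower, and 5581 genes had an unadjusted p under 0.05. Nfkbia (0.25, unadjusted p = 0.0455 in limma) and Tnfaip3 (0.30, unadjusted p = 0.0483 in limma) had an FDR of 0.17 and 0.177. No gene of the 10 had groups apart, against 0.839% of all genes. The genotype by treatment interaction was called for 0 of the 10 by limma, edgeR and DESeq2, where limma called 8.75% of all genes, 1.51% higher and 7.24% lower, with 4596 genes at an unadjusted p under 0.05 and none of the 10 among them. It ran from −0.43 for Birc3 (95% interval −1.11 to 0.25) to 0.29 for Tnfaip3 (95% interval −0.07 to 0.66). With batch 2 alone the interaction was called for none of the 10 genes, with Birc3 at −0.69 and Tnfaip3 at 0.28. In the other lists Tab3 (0.17) and Otud7b (0.22) were called for this interaction.

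**Figure D5:**
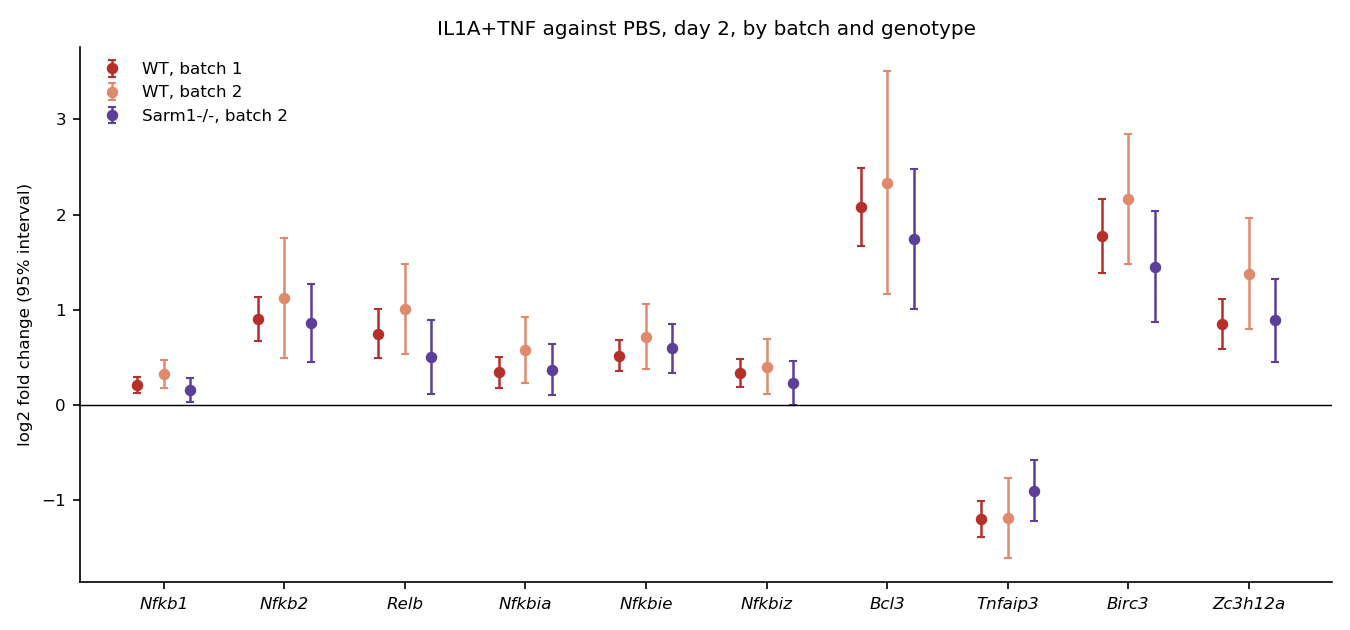
Log2 fold change of IL1A+TNF against PBS (vertical axis) with its 95% interval for the 10 genes in WT batch 1, WT batch 2 and Sarm1-/- batch 2 retinas. The intervals of the 3 sets overlap for every gene, Tnfaip3 lies below 0 in all 3 (−1.20, −1.19 and −0.90), and Nfkbiz in Sarm1-/- retinas was not called (0.23, FDR = 0.0958).

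Sex did not separate the responses at the threshold used. The sex by IL1A+TNF interaction at day 2 was called for none of the 10 genes and for 0% of all genes by limma, with 1308 genes and none of the 10 at an unadjusted p under 0.05. edgeR and DESeq2 called none of the 10. The values ran from −0.04 for Nfkb1 (95% interval −0.21 to 0.12) to 0.31 for Relb (95% interval −0.19 to 0.81).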

How the data were processed

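Whole-retina RNA of 109 eyes was libraried with a poly(A) kit. The submitters' processing notes name STAR 2.7.9a, featureCounts of Subread 2.0.1 and the build mm10. What the authors deposited are raw counts of read pairs for 37315 genes, and 5937 genes were 0 throughout. Which annotation release was counted is not given in the sources used here. Symbols and positions came from a GENCODE annotation on GRCm38 for 35449 genes.

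Values were computed with R 4.3.3, limma 3.58.1, edgeR 4.0.16, DESeq2 1.42.0, statmod 1.5.0 and Python 3.11.15 (pandas 2.3.3, scipy 1.17.1). Genes were kept by filterByExpr (minimum count 10, total 15, proportion 0.7, large groups from 10). Counts were TMM scaled and fitted with voom and duplicateCorrelation in 2 rounds, with terms for treatment and sex and, where both batches entered, batch. Mouse was the random block, since both eyes of a mouse share the animal. Its estimated correlation was 0.0515 at day 2. The fit of PBS retinas over days had no block, although 1 of its 43 mice gave 2 of its 44 retinas. P-values were adjusted by Benjamini-Hochberg over all genes of a fit, with calls at an FDR under 0.05. They measure the spread between retinas. CPM uses TMM-scaled totals. For relations a prior count of 2 was added before the log. Counting precision was set by 30014757 to 79064488 counts per retina. Fits were tried on simulated data without the mouse block and for 1 comparison of each fit. The block and the other comparisons were not covered there.

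Alternatives were edgeR's quasi-likelihood test, DESeq2, other filters and scalings, dropping the sex term, dropping the block, mouse as a fixed factor, only the groups compared, batch 2 alone, and single retinas left out. The members, gene lists and marker lists were chosen with earlier results of these data known. All 10 members are named in each comparison. Of each further list those 3 genes are named that had the smallest FDR after IL1A+TNF among called genes with a mean of at least 1 CPM, and called genes that were lower or had an interaction were named after their values were seen.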

Additional observations from a re-analysis of the deposited data

Results flagged for a closer look

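The highest and lowest retina of each group of 4 to 10 was compared with its nearest neighbour, as the gap divided by the range of the group, for the 10 genes. This made 110 groups, of which 8 held a retina past Dixon's 95% critical value, where chance alone gives about 1 in 20, or 5.5.

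Tnfaip3 in IL1A+TNF retina 9 of batch 1 (gap over range 0.594) was 208.6 CPM, with the other 9 retinas between 84.1 and 121.6 CPM. Relb in IL1A+TNF retina 2 of batch 1 (0.514) was 9.91 CPM, with the others between 4.77 and 6.81 CPM. Nfkbiz in IL1A+TNF retina 4 of batch 1 (0.476) was 38.3 CPM, with the others between 23.4 and 30.3 CPM. Relb in WT IL1A+TNF retina 1 of batch 2 (0.753) was 9.39 CPM, with the others between 6.90 and 7.44 CPM. Birc3 in WT PBS retina 3 of batch 2 (0.749) was 1.24 CPM, with the others between 2.36 and 2.92 CPM.

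Among the later days, Nfkbia in PBS retina 4 of day 35 (0.718) was 24.7 CPM, with the others between 19.1 and 20.5 CPM. Zc3h12a in TNF retina 6 of day 14 (0.743) was 1.07 CPM, with the others from 1.8 to 2.15 CPM. Zc3h12a in TNF retina 5 of day 35 (0.57) was 2.08 CPM, with the others between 1.21 and 1.53 CPM. No gene of the 10 was called for a difference between sexes, days, batches or genotypes in its response.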

How the results depend on the processing

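Of 88 called values of the 10 genes, 1299 alternative values were computed, of which 1211 kept direction and call, 88 kept direction only and 0 turned. Of 333 counts of called genes under alternatives, 319 lay within 1.5 times the reported count. The cause of the exceptions was not tested except where fewer retinas entered.

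Pairing of eyes by mouse as a fixed factor gave 0 called genes for IL1A+TNF against IL1A and 2 for IL1A+TNF against TNF. It gave 0 for IL1A against TNF and 0 for the interaction. It turned Bcl3 after TNF at day 2 from −0.32 to 0.29, not called either way. It gave 10 for IL1A+TNF and 7 for IL1A against PBS, and 7 in WT batch 2. Leaving out the random block for mouse, which the reported fits used, moved no count past 1.5 times. With mouse as a fixed factor Sarm1-/- against WT, the sex interaction and the PBS days could not be fitted.

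With only the groups compared, IL1A+TNF against IL1A gave 1 gene. The interaction gave 2 genes in edgeR and 2 in DESeq2, and 1 to 2 when single retinas were left out. PBS day 35 against day 14 gave 1 in edgeR and 2 in DESeq2. PBS retinas with a TNF fellow eye gave 5 over days and 3 at day 14, and Sarm1-/- without IL1A+TNF retinas 4 and 5 gave 4, both choices made after seeing the data. With single retinas left out, counts ran from 9 to 10 for IL1A, 8 to 10 for WT batch 2 (8 without PBS retina 4) and 6 to 10 for Sarm1-/-. With either eye left out of the mouse that gave 2 PBS retinas at day 14, also chosen after seeing the data, counts ran from 7 to 8 for day 14 and from 9 to 10 over the days.

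Values that were not called changed sign more often. Of 132 such values, 44 took the other direction under at least 1 alternative. Of the 2029 alternative values computed for the 132, 122 had the other direction, and 0 of these were called. The largest of them was 0.3593 in size on the log2 scale. Changes of sign near 0 are listed here for Tnfaip3. Tnfaip3 between the batches (0.03) was −0.0017 in DESeq2 and from −0.08 to 0.10 with single retinas left out (−0.0187 and −0.0808 without WT PBS retinas 1 and 5). Tnfaip3 between genotypes in PBS (0.0031) was −0.0032 with the stricter filter, −0.0014 with DESeq2 size factors, −0.0043 with library totals and with the DESeq2 test, −0.0016 without the sex term, and from −0.0647 to 0.0807 with single retinas left out (−0.0155, −0.0647, −0.0628, −0.0478 and −0.0054 among them).

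Depth was lowest for Zc3h12a, with 15307 counts over all retinas, and whole-retina counts cannot place a change in a cell type.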

Other observations

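PBS retinas of day 2 were also compared by what the fellow eye had received, in the 23 PBS retinas with a sequenced fellow eye, a comparison chosen after seeing the data. limma called none of the 18702 genes tested, and 665 had an unadjusted p under 0.05. Of the 10 genes Bcl3 was among them (unadjusted p = 0.00587 in limma, FDR = 1). Its log2 level was 1.01 higher when the fellow eye had received IL1A+TNF than when it had received TNF, and 1.06 higher when it had received IL1A than TNF.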
